A study of Mus musculus with 14 samples.

Results

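The genes that build goblet cell mucus were followed in small intestinal organoids of 4 genotypes. The set holds 8 genes chosen by name for goblet cell products and the factor that drives them, namely *Muc2*, *Fcgbp*, *Clca1*, *Zg16*, *Tff3*, *Spink4*, *Agr2* and *Spdef*. They were chosen with earlier results of these data known, so counts of members beside shares of all genes are a description. All 8 were found among the 18781 genes of the deposited table, and all 8 were among the 12802 genes that passed the filter on low values.

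Goblet cells are secretory cells of the intestinal epithelium that fill their upper part with mucin granules and release them onto the surface. The released mucin swells into a gel that keeps bacteria away from the epithelium, and small proteins packed with it shape how the gel unfolds and holds together. Notch signalling sets the balance between absorptive and secretory cells, and further transcription factors then carry a secretory precursor to a mature goblet cell.

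The study asks what loss of the autophagy gene *Atg16l1* does to an epithelium that lacks *Rnaseh2b*, a subunit gene of RNase H2, the enzyme that takes ribonucleotides out of DNA. WT organoids (n = 4) carried floxed alleles of both genes and no Cre (ATG16L1flox/flox_RNaseH2Bflox/flox). The *Atg16l1* ΔIEC organoids (ATG16L1flox/flox_VillinCre+/-, n = 4), the *Rnaseh2b* ΔIEC organoids (RNaseH2Bflox/flox_VillinCre+/-, n = 2) and the *Atg16l1/Rnaseh2b* ΔIEC organoids (ATG16L1flox/flox_RNaseH2Bflox/flox_VillinCre+/-, n = 4) had Cre under the Villin promoter, which is active in intestinal epithelium. All were grown in Intesticult medium without treatment, and further *Rnaseh2b* ΔIEC samples were left out by the authors for their read counts. The study used young and aged mice, and the ages of those that gave these organoids are not given.

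Both deleted genes were read in every library first. *Atg16l1* had deposited log2 values of 9.43, 9.54, 9.44 and 9.44 in WT, 9.52 and 9.53 in *Rnaseh2b* ΔIEC, 6.87, 7.35, 6.75 and 6.73 in *Atg16l1* ΔIEC, and 8.37, 8.14, 8.57 and 8.47 in *Atg16l1/Rnaseh2b* ΔIEC libraries. *Rnaseh2b* had 8.47, 8.41, 8.58 and 8.70 in WT, 8.71, 8.72, 8.58 and 8.48 in *Atg16l1* ΔIEC, 7.21 and 7.15 in *Rnaseh2b* ΔIEC, and 7.92, 7.68, 7.79 and 7.84 in *Atg16l1/Rnaseh2b* ΔIEC libraries. Every library thus had less of the gene its label names as deleted than any library without that deletion. Both genes stood higher in the double knockout than in the matching single knockout, by 1.46 for *Atg16l1* and 0.63 for *Rnaseh2b* on the log2 scale.

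Some libraries of a genotype stood apart from the others. In the 3 genotypes with 4 libraries, once the genotype means were taken off, library 1 went with library 2 and library 3 with library 4, at r = 0.406 to 0.864 across genes. The 2 *Rnaseh2b* ΔIEC libraries were taken as a pair by their numbers, which their values cannot show. By *Xist* and *Ddx3y* each such pair has 1 sex: WT 1 and 2, *Atg16l1* ΔIEC 3 and 4, *Rnaseh2b* ΔIEC 1 and 2 and *Atg16l1/Rnaseh2b* ΔIEC 1 and 2 are male, and the other pairs are female. Every comparison was therefore also fitted with the pair as a random block, and where that ends the call of a named gene, its adjusted p is given with it. By the library names, all WT libraries and *Atg16l1/Rnaseh2b* ΔIEC 3 and 4 ran in lane 1 and the rest in lane 2, so for the single knockouts against WT lane and genotype cannot be told apart. A group is called higher or lower for a gene when the limma p, two-sided and adjusted over all 12802 genes, is under 0.05. Unless the block is named, these calls and all confidence intervals treat the libraries as independent. For *Clca1* in *Atg16l1* ΔIEC against WT, the standard error was 0.102 in that fit and 0.162 with the pair block.

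The mucus genes stood at very different levels. Per kilobase of exon, the mean log2 level over the 14 libraries was 14.50 for *Spink4*, 14.40 for *Tff3*, 11.77 for *Fcgbp*, 11.58 for *Agr2*, 10.11 for *Zg16*, 8.32 for *Muc2*, 6.73 for *Spdef* and 6.53 for *Clca1*. The small secreted peptides *Spink4* and *Tff3* thus led, and the mucin *Muc2* itself stood well below its partner *Fcgbp*. Neighbouring places pool all genotypes and need not hold within each. For *Clca1* the mean log2 value, not scaled by length, was 9.09 in WT and 7.41 in *Rnaseh2b* ΔIEC organoids. Reads in the internal repeats of long mucins may be counted differently from other reads, and how they were handled is not given.

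*Muc2* encodes the gel-forming mucin of the intestine. Its log2 values were 10.75, 10.81, 11.49 and 11.50 in WT, 11.06, 10.89, 10.91 and 11.16 in *Atg16l1* ΔIEC, 10.89 and 10.69 in *Rnaseh2b* ΔIEC, and 11.62, 11.51, 11.55 and 11.36 in *Atg16l1/Rnaseh2b* ΔIEC libraries. WT split by pair, with the female libraries 3 and 4 at the level of the double knockout. The male libraries 1 and 2 lay between the *Rnaseh2b* ΔIEC libraries and below all *Atg16l1* ΔIEC libraries. The WT pairs differed by 0.72, more than the difference of any knockout from the WT mean.

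*Fcgbp* encodes the IgG Fc binding protein, a large mucus protein that attaches to the mucin network. Its log2 values were 14.99, 14.98, 15.66 and 15.63 in WT, 14.85, 14.72, 14.57 and 14.86 in *Atg16l1* ΔIEC, 14.74 and 14.61 in *Rnaseh2b* ΔIEC, and 15.75, 15.66, 15.67 and 15.57 in *Atg16l1/Rnaseh2b* ΔIEC libraries. All 6 single knockout libraries lay below all WT libraries, and WT 3 and 4 overlapped the double knockout. As for *Muc2*, the WT pairs stood apart, here by 0.66.

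*Clca1* encodes a secreted metalloprotease that works on the mucus network. Its log2 values ran from 8.99 to 9.19 over the 4 WT libraries, and were 8.03, 7.99, 8.23 and 8.47 in *Atg16l1* ΔIEC, 7.55 and 7.26 in *Rnaseh2b* ΔIEC, and 8.61, 8.71, 8.60 and 8.44 in *Atg16l1/Rnaseh2b* ΔIEC libraries. It was the single member for which every knockout library lay below every WT library. The order was WT, double knockout, *Atg16l1* ΔIEC and *Rnaseh2b* ΔIEC, and of these neighbours only the double knockout and *Atg16l1* ΔIEC overlapped, through 1 library each. The WT pairs differed by only 0.02.

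*Zg16* encodes a lectin-like mucus protein that binds Gram-positive bacteria. Its log2 values were 10.85, 10.82, 10.69 and 10.74 in WT, 10.04, 9.50, 9.98 and 10.22 in *Atg16l1* ΔIEC, 10.64 and 10.20 in *Rnaseh2b* ΔIEC, and 11.07, 11.10, 10.22 and 10.10 in *Atg16l1/Rnaseh2b* ΔIEC libraries. The double knockout split by pair: libraries 1 and 2 were above all WT libraries, and libraries 3 and 4 were below them and within the range of the single knockouts. That gap of -0.92 (libraries 3 and 4 minus 1 and 2) was the widest between pairs for any member.

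*Tff3* encodes the trefoil peptide that goblet cells secrete with mucin. Its log2 values were 13.50, 13.53, 13.65 and 13.69 in WT, 13.13, 13.26, 12.68 and 12.85 in *Atg16l1* ΔIEC, 13.06 and 12.91 in *Rnaseh2b* ΔIEC, and 13.94, 13.81, 13.74 and 13.61 in *Atg16l1/Rnaseh2b* ΔIEC libraries. All single knockout libraries lay below WT, and only the lowest double knockout library, number 4, fell within the WT range. *Spink4*, a small Kazal-type protein of goblet cells, had 13.38, 13.35, 13.69 and 13.70 in WT, 13.16, 13.25, 12.84 and 12.92 in *Atg16l1* ΔIEC, 13.28 and 13.12 in *Rnaseh2b* ΔIEC, and 14.14, 13.93, 13.71 and 13.60 in *Atg16l1/Rnaseh2b* ΔIEC libraries. It followed the same grouping, with the double knockout overlapping WT through library 4.

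*Agr2* encodes a protein disulfide isomerase of the endoplasmic reticulum that is needed to make intestinal mucin. Its log2 values were 11.67, 11.77, 12.20 and 12.19 in WT, 11.95, 12.17, 11.55 and 11.71 in *Atg16l1* ΔIEC, 11.61 and 11.44 in *Rnaseh2b* ΔIEC, and 12.33, 12.15, 12.27 and 12.26 in *Atg16l1/Rnaseh2b* ΔIEC libraries. In both WT and *Atg16l1* ΔIEC the female pair was the higher, by 0.48 and 0.43 (the latter as -0.43 for libraries 3 and 4 minus 1 and 2), whereas the pairs of the double knockout differed by 0.02. *Spdef*, the transcription factor of goblet cell maturation, was nearly level in WT, at 7.94, 7.94, 7.91 and 7.96. It had 7.91, 7.82, 7.53 and 7.74 in *Atg16l1* ΔIEC, 7.87 and 7.65 in *Rnaseh2b* ΔIEC, and 8.20, 8.08, 8.26 and 8.27 in *Atg16l1/Rnaseh2b* ΔIEC libraries. Every double knockout library was above, and every single knockout library below, all WT libraries.

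**Figure D1:**
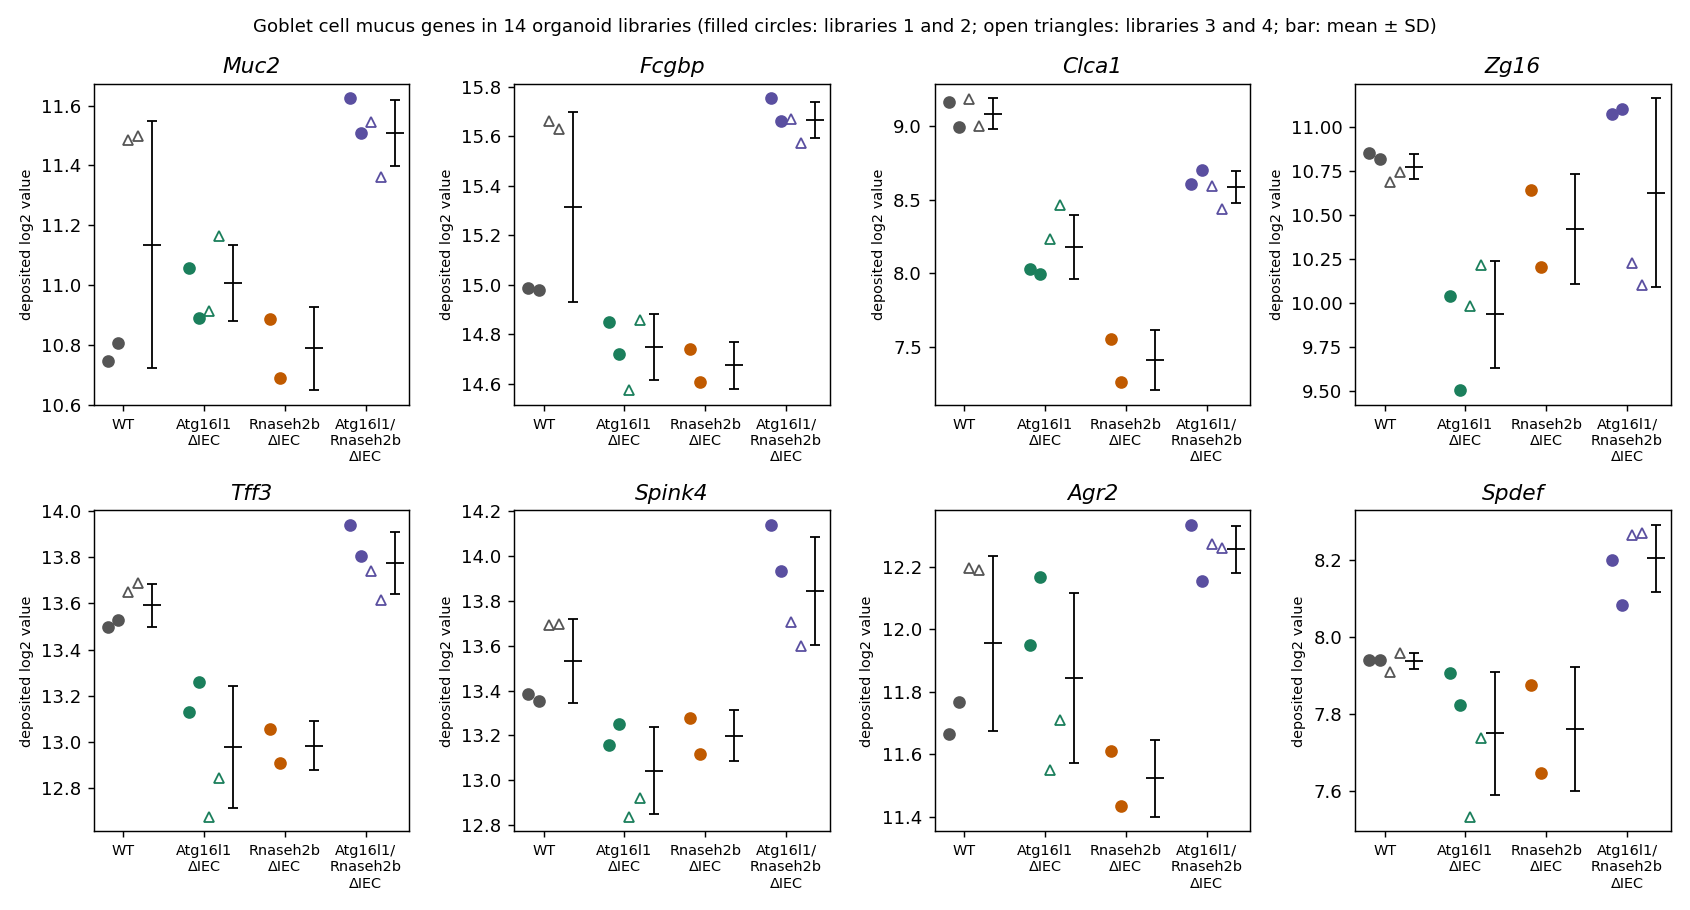
Deposited log2 values of the 8 mucus genes in each of the 14 libraries, grouped by genotype. Filled circles are libraries 1 and 2, open triangles libraries 3 and 4, and bars the mean and SD of a genotype.

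Summed on the linear scale, the 8 genes made up 0.293, 0.297, 0.421 and 0.418% of all values in WT, 0.263, 0.262, 0.209 and 0.246% in *Atg16l1* ΔIEC, 0.246 and 0.220% in *Rnaseh2b* ΔIEC, and 0.482, 0.439, 0.431 and 0.400% in *Atg16l1/Rnaseh2b* ΔIEC libraries. No single knockout library reached the lowest WT library, and the double knockout overlapped the upper WT pair. *Fcgbp* alone supplied 55.4% of this sum. A list of 19 further goblet cell genes summed to 0.0566 to 0.0581% in WT and 0.0557 to 0.0591% in *Atg16l1* ΔIEC libraries. It had 0.0608 and 0.0615% in *Rnaseh2b* ΔIEC and 0.0560 to 0.0621% in *Atg16l1/Rnaseh2b* ΔIEC libraries. In such bulk RNA, fewer goblet cells and less mucus RNA per goblet cell cannot be told apart.

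Over the 14 libraries most members moved together. The correlation of each member with the mean of the other members, given as a description, was highest for *Fcgbp* (r = 0.965), *Tff3* (0.946) and *Spink4* (0.927), intermediate for *Spdef* (0.804), *Muc2* (0.801) and *Agr2* (0.785), and lowest for *Clca1* (0.591) and *Zg16* (0.511). WT had the highest mean for both *Clca1* and *Zg16*, and the double knockout was split for *Zg16*. Why their correlations were low was not tested. Among the other genes tested, the 10 most like the mean of the members were *Chga* (r = 0.958), *Nup214* (0.958), *Rbbp8nl* (0.957), *Capn7* (0.956), *Pdrg1*, *Smarca4*, *Ice1*, *Noc3l*, *Sipa1l1* and *Srsf7* (0.949). *Chga*, the chromogranin of enteroendocrine cells, had mean log2 values of 11.46 in WT, 11.72 in double knockout, 10.99 in *Atg16l1* ΔIEC and 11.13 in *Rnaseh2b* ΔIEC organoids. Of 12794 genes compared, 88 (0.688%) had an r of at least 0.9 and 551 (4.31%) of at least 0.8.

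In *Rnaseh2b* ΔIEC against WT organoids, 3 of the 8 mucus genes were called lower, 2 with the library pairs as a block. *Clca1* fell 3.21-fold, a log2 fold change of -1.68 (95% confidence interval -1.95 to -1.41, n = 2 against 4, limma adjusted p = 6.47e-06). *Fcgbp* fell 1.56-fold and *Tff3* 1.52-fold. No member was called higher, where 14.4% of all genes tested were, and 3 of 8 were called lower, where 12.3% were. With the pair block the 2 lower members stood beside 2.34% of all genes lower and 3.34% higher, and with the pairs averaged limma called 0, with 3 at an unadjusted p under 0.05. All 8 log2 fold changes were below 0, with a median of -0.39 against 0.00 over all genes, and limma gave an unadjusted p under 0.05 for 5 of them.

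*Tff3* (-0.61, 95% confidence interval -0.90 to -0.32, limma adjusted p = 0.0057) kept its call with the pairs as a block, as did *Clca1*, at adjusted p = 0.0442 and 0.000498. *Fcgbp* (-0.64, limma adjusted p = 0.0169) did not, at adjusted p = 0.0816. Over all alternatives the adjusted p reached 0.0647 for *Clca1*, 0.237 for *Tff3* and 0.291 for *Fcgbp*, so that each call was lost in at least 1 of them. The other 5 members had log2 fold changes from -0.43 for *Agr2* to -0.18 for *Spdef*, none past the threshold. Apart from *Muc2*, both *Rnaseh2b* ΔIEC libraries lay below all WT libraries for each member, and the exact permutation test, two-sided, cannot go below 0.133 here. Without *Rnaseh2b* ΔIEC replicate 2, 1 member (*Clca1*) was called, and *Tff3* (-0.53) and *Fcgbp* (-0.57) were not. *Fcgbp* (-0.71) also lost its call without replicate 1, and *Agr2* (-0.53) was called without WT replicate 1. *Clca1* ran from -1.83 to -1.54 over all alternatives. Lane as a covariate left 712 of 12802 genes called lower and 792 higher. In that fit 4 members were called, *Clca1*, *Zg16* (-1.28), *Tff3* (-0.80) and *Spink4* (-0.72), *Fcgbp* (-0.72) was not, and the median was -0.72. That covariate rests on the double knockout alone, where lane coincides with pair and sex. The WT pair used mattered for 4 members. Without the male WT libraries 1 and 2, *Muc2* had -0.71, *Fcgbp* -0.97, *Agr2* -0.67 and *Spink4* -0.50, and 6 members were called. In that fit 1519 of 12802 genes were called lower and 1790 higher. Without the female libraries 3 and 4, which leaves a comparison among males, these 4 members had 0.010, -0.31, -0.19 and -0.17.

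Counts in lists of related genes are to be read beside the shares of all genes called, here 12.3% lower and 14.4% higher, or 2.34% and 3.34% with the pair block. Of 14 transcription factors and Notch genes of the secretory fate, 5 were lower and 1 higher in *Rnaseh2b* ΔIEC organoids (median -0.25), 3 and 1 with the pair block. Among them *Klf4*, a goblet cell differentiation factor (-0.57, limma adjusted p = 0.00607), *Bhlha15*, a factor of secretory cell architecture (-0.51, 0.00431), *Elf3*, an epithelial ETS factor (-0.42, 6.97e-05), and *Gfi1*, a repressor in the secretory lineage (-0.18, 0.0284, and 0.289 with the pair block), fell, while the Notch ligand gene *Dll1* rose (0.54, 0.000168). *Foxa3* had -0.25 (limma adjusted p = 0.0535) and *Creb3l1* -0.10 (0.594). Among 14 genes of mucus protein folding and export 4 were lower and 1 higher, 1 lower with the pair block, among them *Ern2*, the goblet cell stress sensor (-0.48, limma adjusted p = 0.0142, and 0.0935 with the pair block). Of 18 further goblet cell genes tested, 5 were lower and 2 higher, and 1 each with the pair block; *Bace2* fell (-0.84) and *Scin* rose (1.42). Of 21 glycosylation genes, 4 were lower and 1 higher, 1 lower with the pair block, the former including the enzyme genes *Galnt3* (-0.44) and *Gcnt3* (-0.39, adjusted p = 0.0829 with the pair block).

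Of 12 enterocyte genes, 10 were higher in *Rnaseh2b* ΔIEC organoids (median 1.12), 5 with the pair block, led by lactase, *Lct* (1.56, limma adjusted p = 0.00626). Their summed level was 0.948, 0.859, 0.679 and 0.666% in WT, 0.785, 0.724, 1.14 and 0.994% in *Atg16l1* ΔIEC, 1.27 and 1.41% in *Rnaseh2b* ΔIEC, and 0.631, 0.808, 0.598 and 0.616% in *Atg16l1/Rnaseh2b* ΔIEC libraries, with *Sis* the most abundant. The brush border protease genes *Mep1b* (1.30, limma adjusted p = 8.25e-05) and *Mep1a* (0.56, 0.00104), whose products act on mucus, also rose, and 4 of 10 mucus release and processing genes were higher and 1 lower, 3 higher with the pair block. Stem cell genes were lower for 3 of 9, 2 with the pair block, and enteroendocrine genes for 1 of 12, 1 with the pair block. The part of other cell types in the mucus gene result was not tested.

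In *Atg16l1* ΔIEC against WT organoids, 5 of the 8 mucus genes were called lower, 2 with the pair block. *Clca1* fell 1.87-fold (log2 fold change -0.91, 95% confidence interval -1.13 to -0.69, n = 4 against 4, limma adjusted p = 0.000109), *Zg16* 1.79-fold, *Tff3* 1.53-fold, *Fcgbp* 1.48-fold and *Spink4* 1.40-fold. These 5 of 8 members were the ones called lower, where 10.4% of all genes were, and none was called higher, where 8.73% were. Of all genes 1.88% were called lower and 1.12% higher with that block. All 8 log2 fold changes were below 0, with a median of -0.53 against 0.00 over all genes, and limma gave an unadjusted p under 0.05 for 6.

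With the pairs as a block, *Clca1* (adjusted p = 0.00736) and *Tff3* (-0.61, 0.0236) were still called, while *Spink4* (-0.49, 0.0907), *Fcgbp* (-0.56, 0.0909) and *Zg16* (-0.84, 0.128) were not. Over all alternatives the limma adjusted p reached 0.129 for *Clca1* and 0.261 for *Tff3*. *Muc2* (-0.13, limma adjusted p = 0.587) and *Agr2* (-0.11, 0.601) overlapped WT, and their confidence intervals were -0.46 to 0.20 and -0.40 to 0.18. Without the female WT pair these became 0.23 and 0.13, and 2 members were called, as *Fcgbp* (-0.23), *Spink4* (-0.33) and *Zg16* (-0.90) were not. In that fit 1031 of 12802 genes were called lower and 771 higher. Without the male WT pair *Muc2* (-0.49) was called and *Zg16* (-0.78) was not. With lane as a covariate the median was -0.73 and 4 were called, *Clca1*, *Zg16* (-1.76), *Spink4* (-0.87) and *Tff3* (-0.81), while *Fcgbp* (-0.65) was not. That covariate left 809 of 12802 genes called lower and 777 higher. *Spink4* was not called without *Atg16l1* ΔIEC replicate 3 (-0.42) or 4 (-0.45). *Spdef* had -0.19 (limma adjusted p = 0.105), although its libraries lay below all WT libraries (exact permutation p = 0.0286, pairs ignored, the smallest that 4 against 4 allow). It was called without *Atg16l1* ΔIEC replicate 1 (-0.24).

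Among the 14 factors and Notch genes, 6 were lower and 1 higher (median -0.25), 1 lower with the pair block. Of all genes 10.4% were lower and 8.73% higher, or 1.88% and 1.12% with the pair block. *Elf3* (-0.54, limma adjusted p = 2.69e-06), *Klf4* (-0.46, 0.00849) and *Foxa3*, a forkhead factor of goblet cells (-0.34, 0.00631), fell. With the pair block *Klf4* (adjusted p = 0.0532) and *Foxa3* (0.128) were not called. The *Foxa3* log2 values were 9.51, 9.64, 9.50 and 9.60 in WT and 9.18, 9.22, 9.27 and 9.21 in *Atg16l1* ΔIEC libraries, without overlap. *Gfi1* had -0.07 (limma adjusted p = 0.328). Of the 21 glycosylation genes 5 were lower and 1 higher, 3 lower with the pair block, again with *Gcnt3* (-0.47, limma adjusted p = 0.00142). In the other goblet cell genes 2 were higher and 1 lower, with a median of -0.01, and limma with the pair block called 0 of them, against 7 of 18 at an unadjusted p under 0.05 without it. The folding and export genes had 2 of 14 lower, 1 with the pair block, among them the sulfhydryl oxidase gene *Qsox1* (-0.37, limma adjusted p = 0.00655).

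Stem cell genes were lower here as well, 7 of 9 (median -0.44), 3 with the pair block. Their summed level was 0.176, 0.179, 0.162 and 0.170% in WT, 0.130, 0.133, 0.110 and 0.113% in *Atg16l1* ΔIEC, 0.128 and 0.124% in *Rnaseh2b* ΔIEC, and 0.172, 0.147, 0.151 and 0.151% in *Atg16l1/Rnaseh2b* ΔIEC libraries, with *Smoc2* the most abundant. *Olfm4*, 1 of these genes, had log2 fold changes of -1.22 here and -1.51 in the double knockout against WT. In the latter comparison limma with the pair block called 0 of 9 stem cell genes. In *Atg16l1* ΔIEC organoids *Lgr5*, a stem cell receptor gene, fell by 0.85 (limma adjusted p = 0.000244). Enteroendocrine genes were lower for 3 of 12, 1 with the pair block. Their part in the mucus gene result was not tested.

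In *Rnaseh2b* ΔIEC against *Atg16l1* ΔIEC organoids, which ran in the same lane, *Clca1* was 1.71-fold lower in *Rnaseh2b* ΔIEC (log2 fold change -0.77, 95% confidence interval -1.04 to -0.50, n = 2 against 4, limma adjusted p = 0.00324). It was the 1 member called lower, where 2.47% of all genes were, and none was called higher, where 4.34% were; limma gave an unadjusted p under 0.05 for 1 member. With the pair block, where 0.0625% of all genes were called lower and 0.414% higher, the adjusted p of *Clca1* was 0.121, and without *Rnaseh2b* ΔIEC replicate 2 its log2 fold change of -0.63 was no longer called, which left 0 members. The other 7 had log2 fold changes from -0.32 for *Agr2* to 0.49 for *Zg16*. For *Tff3*, *Spdef*, *Fcgbp* and *Spink4* the direction was not settled. It turned for *Fcgbp* with sex as a covariate, and for *Tff3*, *Spdef* and *Spink4* when *Atg16l1* ΔIEC libraries 3 and 4 were left out. Of 12 enterocyte genes 3 were higher and 0 lower (median 0.66), and of 18 further goblet cell genes 1 was higher and 3 lower. Limma with the pair block called 0 in these lists, with 8 and 6 at an unadjusted p under 0.05 without it. Their part in the mucus gene result was not tested.

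In *Atg16l1/Rnaseh2b* ΔIEC against WT organoids, 1 mucus gene was called lower and 1 higher, and neither call held with the library pairs as a block. *Clca1* fell 1.41-fold (log2 fold change -0.50, 95% confidence interval -0.72 to -0.28, n = 4 against 4, limma adjusted p = 0.0078), and *Spdef* rose 1.20-fold (0.27, 95% confidence interval 0.10 to 0.43, limma adjusted p = 0.0342). These were 1 of 8 members called higher, where 8.10% of all genes were, and 1 called lower, where 8.01% were. With the pair block limma called 0, with 3 at an unadjusted p under 0.05, and only 0.281% of all genes were called higher and 0.383% lower. Members had a median of 0.28 against 0.00 over all genes, 6 members had a log2 fold change above 0, and without the block limma gave 6 members an unadjusted p under 0.05.

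With the pairs as a block the adjusted p was 0.155 for *Clca1* and 0.308 for *Spdef*. Both had libraries that did not overlap WT (exact permutation p = 0.0286 for each, from a test that ignores the pairs). Over all alternatives the adjusted p ran up to 0.438 for *Clca1* and 0.480 for *Spdef*. *Spdef* was no longer called when any single library of WT, or replicate 1, 3 or 4 of the double knockout, was left out, with log2 fold changes of 0.24 to 0.27, and the number of members called was then 1 without WT replicate 1 or 2 or double knockout replicate 1, 3 or 4. In these fits 445 to 1021 of 12802 genes were called higher and 545 to 1053 lower.

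The WT pair decided *Muc2*, *Fcgbp*, *Agr2* and *Spink4*. Against the male WT pair alone, *Muc2* was higher in the double knockout by 0.73, *Fcgbp* by 0.68, *Agr2* by 0.54 and *Spink4* by 0.47, all 4 called. Of 12802 genes 1138 were then called higher and 1203 lower. Against the female pair alone, *Muc2* had 0.016 and *Fcgbp* 0.018, with 216 genes called higher and 282 lower. Leaving out WT replicate 3 or 4 alone was enough for *Muc2* (0.49 and 0.50) and *Fcgbp* (0.47 and 0.45) to be called. With all WT libraries the log2 fold changes were 0.37 for *Muc2*, 0.35 for *Fcgbp*, 0.31 for *Spink4*, 0.30 for *Agr2* and 0.18 for *Tff3*, none called.

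*Zg16* turned on the pair of the double knockout. Its log2 fold change was -0.15 (95% confidence interval -0.62 to 0.32), but 0.31 without double knockout libraries 3 and 4 and -0.61 without libraries 1 and 2. The latter is also the comparison within lane 1, where *Clca1* had -0.57 and *Spdef* 0.33 and 3 members were called. Within lane 1, 597 of 12802 genes were called higher and 714 lower.

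Around these genes, 6 of 14 folding and export genes were higher and 2 lower, where 8.10% and 8.01% of all genes were (0.281% and 0.383% with the pair block), among them *Sdf2l1* (0.44, limma adjusted p = 0.00354), *Pdia5* (0.40, 0.00614) and *Qsox1* (0.26, 0.0429). Limma with the pair block called 0 of these (adjusted p = 0.0724, 0.0835 and 0.206 for those named), against 9 at an unadjusted p under 0.05 without it. Of the 18 further goblet cell genes 6 were higher, *Ccl9* most (0.78, limma adjusted p = 0.00466, and 0.0843 with the pair block), and limma with the pair block called 0 of them, where 6 had an unadjusted p under 0.05 without it. Limma called 0 of the 14 factors and Notch genes, with 7 at an unadjusted p under 0.05; *Klf4* had -0.32 (adjusted p = 0.0517) and *Foxa3* 0.15 (0.181). Of 7 other mucin and trefoil genes tested, *Muc13*, a transmembrane mucin gene, fell (-0.24, limma adjusted p = 0.00691, and 0.099 with the pair block). Glycosylation genes were lower for 5 and higher for 2 of 21, mucus release and processing genes lower for 3 of 10, and Paneth cell genes higher for 4 of 12. Limma with the pair block called 0 in these lists, with 10, 4 and 6 at an unadjusted p under 0.05 without it. Of 12 enterocyte genes 3 were lower and 1 higher, 1 lower with the pair block.

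Against *Rnaseh2b* ΔIEC organoids, the double knockout was called higher for 7 of the 8 mucus genes, and for 5 with the pair block. *Clca1* rose 2.27-fold (log2 fold change 1.18, 95% confidence interval 0.91 to 1.45, n = 4 against 2, limma adjusted p = 0.000143), *Fcgbp* 1.99-fold, *Tff3* 1.73-fold, *Agr2* 1.66-fold, *Muc2* 1.65-fold, *Spink4* 1.56-fold and *Spdef* 1.36-fold. These 7 of 8 members were called higher, where 11.1% of all genes were, and none was called lower, where 14.4% were. The pair block left 1.51% of all genes called higher and 3.90% lower. The median was 0.73 against 0.00 over all genes, and limma gave an unadjusted p under 0.05 for 7. *Zg16* (0.20, limma adjusted p = 0.605) was the exception and the only member whose libraries overlapped.

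The 2 members that lost their call with the pairs as a block were *Muc2* (0.72, adjusted p = 0.0728) and *Spdef* (0.44, adjusted p = 0.0986). Without *Rnaseh2b* ΔIEC replicate 2, 3 were called, namely *Clca1*, *Tff3* and *Fcgbp*, with log2 fold changes for the lost members of 0.62 for *Muc2*, 0.65 for *Agr2*, 0.56 for *Spink4* and 0.33 for *Spdef*. Without replicate 1, *Muc2* (0.82) alone lost its call. Within lane 2, where all libraries compared are male, 6 were called, and 8 with lane as a covariate, with 1.25 for *Clca1*, 1.03 for *Fcgbp*, 0.89 for *Tff3* and 0.84 for *Spink4*. Of 12802 genes 1143 were called higher and 1540 lower within lane 2, and 1525 and 1941 with lane as a covariate.

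Of the 14 factors and Notch genes 5 were higher and 1 lower (median 0.24), 3 and 1 with the pair block. Of all genes 11.1% were higher and 14.4% lower, or 1.51% and 3.90% with the pair block. *Bhlha15* (0.67, limma adjusted p = 0.00106), *Foxa3* (0.39, 0.00682), *Gfi1* (0.32, 0.00197) and *Elf3* (0.31, 0.000672) rose, and *Dll1* fell (-0.40, 0.00149). With the pair block *Foxa3* (adjusted p = 0.111) and *Gfi1* (0.0723) were not called. In single libraries *Gfi1* had 4.71 and 4.69 in *Rnaseh2b* ΔIEC and 5.11, 4.97, 4.98 and 5.01 in *Atg16l1/Rnaseh2b* ΔIEC, without overlap. Among folding genes 6 of 14 were higher, 3 with the pair block, with *Ern2* (0.69, limma adjusted p = 0.00237) in front. Of the 18 further goblet cell genes 9 were higher and 2 lower, 3 and 1 with the pair block, among them the granule transport gene *Sytl2* (0.67, limma adjusted p = 0.00623, and 0.0542 with the pair block) and, lower, *Scin* (-1.53, 0.000461). Glycosylation genes had 2 higher and 1 lower of 21, below both shares of all genes, and 1 higher with the pair block, *Gcnt3* (0.58, limma adjusted p = 0.00135).

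Mucus release and processing genes were lower for 7 of 10 and higher for 1 (median -0.51), 5 lower with the pair block. *Guca2b*, a guanylin family gene, fell by 1.11, *Mep1b* by 1.03 and the anion exchanger gene *Slc26a6* by 0.87. Of 12 enterocyte genes 10 were lower (median -1.07), 7 with the pair block, and *Lct* (-1.85, limma adjusted p = 0.00274) led. Stem cell genes were higher for 3 of 9 and lower for 1, 1 higher with the pair block. Their part in the mucus gene result was not tested.

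Against *Atg16l1* ΔIEC organoids, the double knockout was called higher for all 8 mucus genes, and for 3 of them with the library pairs as a block. *Fcgbp* rose 1.88-fold (log2 fold change 0.91, 95% confidence interval 0.61 to 1.22, n = 4 against 4, limma adjusted p = 0.00112), *Tff3* and *Spink4* both 1.74-fold, *Zg16* 1.61-fold, *Muc2* 1.42-fold, *Spdef* 1.37-fold, and *Clca1* and *Agr2* both 1.33-fold. All 8 of 8 members were called higher, where 12.6% of all genes were, and none was called lower, where 12.5% were. Of all genes, 1.91% were higher and 1.82% lower with the block. The median was 0.60 against 0.00 over all genes, and limma gave an unadjusted p under 0.05 for all 8. Libraries of the groups did not overlap for *Muc2*, *Fcgbp*, *Tff3*, *Spink4* and *Spdef* (exact permutation p = 0.0286 for each), and overlapped for *Clca1*, *Agr2* and *Zg16* (0.0571 for each). These permutation tests ignore the library pairs.

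The 3 called with the pairs as a block were *Tff3* (0.80, adjusted p = 0.00653), *Spink4* (0.80, 0.0101) and *Fcgbp* (0.0109). The others had adjusted p = 0.0559 for *Spdef*, 0.132 for *Muc2*, 0.166 for *Agr2*, 0.168 for *Clca1* and 0.176 for *Zg16*. Leaving out *Atg16l1* ΔIEC replicate 3, or double knockout replicate 1 or 2, left 5 called each time, and the members lost were *Muc2* (0.47, 0.47 and 0.50), *Agr2* (0.31, 0.38 and 0.44) and *Zg16* (0.71, 0.54 and 0.53). In the same order 927, 1319 and 1429 of 12802 genes were called higher, and 900, 1255 and 1441 lower. Calls were also lost without *Atg16l1* ΔIEC replicate 2 for *Muc2* (0.47) and *Zg16* (0.55) and without replicate 4 for *Agr2* (0.37). Leaving out double knockout replicate 3 did so for *Muc2* (0.49) and *Agr2* (0.41), and replicate 4 for *Agr2* (0.41). Within lane 2, 7 were called, with 1.15 for *Zg16*, 0.99 for *Spink4*, 0.96 for *Fcgbp*, 0.89 for *Tff3* and, uncalled, 0.40 for *Agr2*. That fit called 1555 of 12802 genes higher and 1573 lower.

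Here 5 of the 14 factors and Notch genes were higher (median 0.17), 3 with the pair block, where 12.6% of all genes were higher and 12.5% lower (1.91% and 1.82% with the pair block), and *Foxa3* (0.49, limma adjusted p = 0.000835), *Elf3* (0.43, 1.96e-05) and *Gfi1* (0.20, 0.00829, and 0.168 with the pair block) rose. *Foxa3* had 9.92, 9.75, 9.66 and 9.50 in the double knockout, all above *Atg16l1* ΔIEC. Folding and export genes were higher in 8 of 14 and lower in 2, 2 higher with the pair block, with *Qsox1* (0.63, limma adjusted p = 0.000337) in front. Glycosylation genes were split, 4 higher and 4 lower of 21, 1 each with the pair block, with *Gcnt3* higher (0.67) and the sialyltransferase gene *St3gal4* lower (-0.66). Of the further goblet cell genes 9 of 18 were higher and 1 lower, 1 lower with the pair block. Of the 7 other mucin and trefoil genes 1 was higher and 1 lower, *Tff1* (0.68, limma adjusted p = 0.0337) and *Muc13* (-0.17, 0.0199); limma with the pair block called 0 (adjusted p = 0.158 and 0.147), with 3 at an unadjusted p under 0.05 without it. Of 10 mucus release and processing genes 5 were lower and 2 higher, 2 and 1 with the pair block.

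Genes of other cells were called here as well. Stem cell genes were higher for 6 of 9, 3 with the pair block, enteroendocrine genes for 5 of 12 with 1 lower, 4 higher with the pair block, and enterocyte genes lower for 4 of 12, 1 with the pair block. Paneth cell genes were higher for 7 of 12, 3 with the pair block, led by the lectin gene *Itln1* (0.94, limma adjusted p = 0.000434). Their part in the mucus gene result was not tested.

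**Figure D2:**
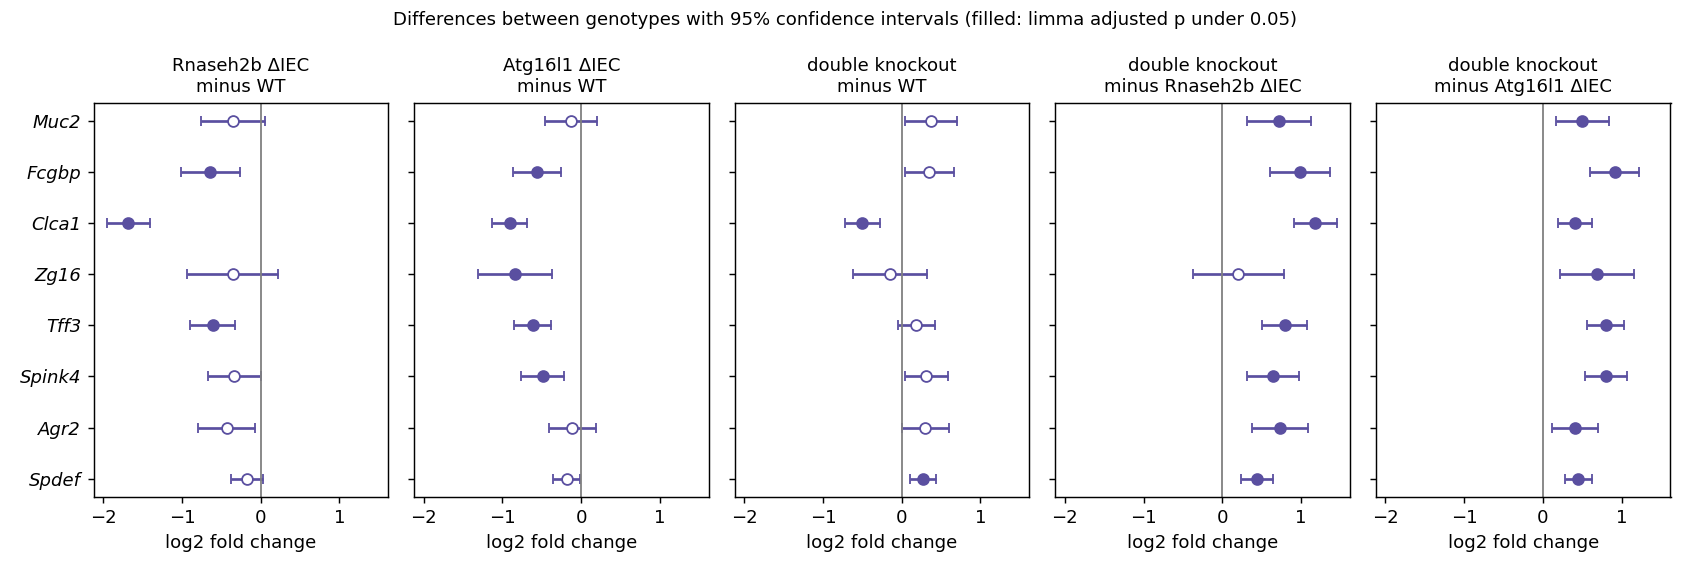
Log2 fold changes of the 8 mucus genes with 95% confidence intervals for each knockout against WT and for the double knockout against each single knockout; filled points passed the limma threshold. The comparisons share libraries, so they are not independent of each other. Intervals and filled points come from the fit that ignores the library pairs.

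The comparisons above share control libraries, and the values of a member are best read side by side. Against WT, *Clca1* had -1.68 with *Rnaseh2b* deleted, -0.91 with *Atg16l1* deleted and -0.50 with both deleted. *Fcgbp* had -0.64, -0.56 and 0.35, and *Tff3* -0.61, -0.61 and 0.18 in the same order. The effects of *Rnaseh2b* deletion in organoids with and without *Atg16l1* were then tested against each other, as a difference of differences. The deleted genes themselves differed in this test, with 1.40 for *Atg16l1* (limma adjusted p = 0.000222) and 0.55 for *Rnaseh2b* (0.00369). Their loss was thus unequal between the effects compared, and its part in the difference for the mucus genes was not tested.

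That difference was above 0 for the whole set. *Clca1* had 2.09 on the log2 scale (95% confidence interval 1.74 to 2.44, limma adjusted p = 6.18e-06), the sum of a loss without *Atg16l1* deletion and a gain with it. *Fcgbp* had 1.55 (limma adjusted p = 0.000329), *Tff3* 1.40 (0.000109), *Spink4* 1.13 (0.00101) and *Zg16* 1.04 (0.0313). All 8 of 8 members were called, each above 0, where 2180 of 12802 genes were called above 0 and 2319 below, together 35.1%. With the library pairs as a block 6 were called, each above 0, where 5.30% of all genes were above and 6.83% below. With the pairs averaged limma called 0, with 7 at an unadjusted p under 0.05. Members had a median of 1.09 against 0.00 over all genes, and limma gave an unadjusted p under 0.05 for all 8.

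The 6 called with the pairs as a block included *Clca1* (adjusted p = 0.000464), *Tff3* (0.00163) and *Fcgbp* (0.00309), and *Muc2* (0.85, adjusted p = 0.0685) and *Zg16* (adjusted p = 0.138) were not among them. Without *Rnaseh2b* ΔIEC replicate 2, 5 were called, and *Muc2* (0.75), *Agr2* (0.76) and *Zg16* (0.82) were not. *Zg16* (0.90) was not called without *Atg16l1* ΔIEC replicate 2 either. With lane as a covariate the median was 1.69 and 5 were called, and *Muc2* (1.02), *Agr2* (0.81) and *Spdef* (0.44) were not. That covariate left 1219 of 12802 genes called above 0 and 1361 below. Over all alternatives *Clca1* ran from 1.92 to 2.30, *Tff3* from 1.19 to 1.70, *Muc2* from 0.49 to 1.21 and *Zg16* from 0.58 to 2.43.

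Beside 2180 genes of 12802 higher and 2319 lower, or 5.30% and 6.83% with the pair block, the same difference was higher for 9 of 14 factors and Notch genes and lower for 1 (median 0.50), 6 and 1 with the pair block, with *Elf3* (0.85, limma adjusted p = 2.58e-06), *Foxa3* (0.74, 0.0005), *Klf4* (0.71, 0.00506) and *Gfi1* (0.38, 0.0016, and 0.0611 with the pair block) higher and *Dll1* lower (-0.70, 0.000114). It was higher for 7 of 14 folding genes, 3 with the pair block, and for 6 of 18 further goblet cell genes with 1 lower, 4 and 1 with the pair block. Of the 21 glycosylation genes 7 were higher and 3 lower, 3 higher with the pair block. Of 10 mucus release and processing genes 7 were lower and 2 higher, 6 and 2 with the pair block. *Creb3l1*, a further factor of goblet cells, had 0.21 (limma adjusted p = 0.346) and was not called in any comparison. Of 12 enterocyte genes 11 were lower (median -1.40), 7 with the pair block. Of 9 stem cell genes 5 were higher, 5 with the pair block, and of 12 enteroendocrine genes 7 were higher, 4 with the pair block. Paneth cell genes were higher for 4 of 12, 2 with the pair block, and tuft cell genes for 3 of 8, where limma with the pair block called 0 and 6 had an unadjusted p under 0.05 without it. Their part in the mucus gene result was not tested.

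Marker genes of other epithelial cells were called in several comparisons as well. Of all genes 11.1% were higher in the double knockout than in *Rnaseh2b* ΔIEC, or 1.51% with the pair block. Enteroendocrine genes were higher in that comparison for 5 of 12, 2 with the pair block, *Neurog3* (0.93, limma adjusted p = 0.00192) among them. Their summed level was 0.151, 0.147, 0.172 and 0.171% in WT, 0.138, 0.151, 0.107 and 0.114% in *Atg16l1* ΔIEC, 0.126 and 0.121% in *Rnaseh2b* ΔIEC, and 0.172, 0.158, 0.203 and 0.205% in *Atg16l1/Rnaseh2b* ΔIEC libraries, with *Chgb* the most abundant. The Paneth cell genes had a summed level of 0.164, 0.159, 0.173 and 0.172% in WT, 0.164, 0.177, 0.111 and 0.116% in *Atg16l1* ΔIEC, 0.159 and 0.135% in *Rnaseh2b* ΔIEC, and 0.295, 0.231, 0.242 and 0.224% in *Atg16l1/Rnaseh2b* ΔIEC libraries, and *Itln1* supplied 49.9% of it. Defensin genes in this list have near-identical copies, so their reads cannot be assigned with certainty. Tuft cell genes were lower in *Rnaseh2b* ΔIEC than in WT for 5 of 8, 1 with the pair block, *Avil* (-0.59, limma adjusted p = 0.00119) most. Of all genes 12.3% were lower there, or 2.34% with the pair block. The part of these cell types in the mucus gene results was not tested.

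Some genes stood at the floor of the table. *Retnlb*, a goblet cell gene of colon and inflamed gut, had -1.49 in WT 1, and *Muc5ac*, the gastric mucin gene, had -1.15 there, with nearly the same value in every library. Of 9 stromal and immune genes in the table, *Vim* was the most abundant (7.42 to 8.22 over the 14 libraries, 79.7% of their sum). The means of the others were 4.37 for *Pecam1*, 3.86 for *Lyz2*, 3.59 for *Cd74*, 2.08 for *Col1a1*, 2.01 for *Acta2*, 1.47 for *Pdgfra*, 0.49 for *Ptprc* and -1.33 for *Cd3e*. Of the 4 that could be tested, 1 was called in any comparison, *Lyz2* (0.13, adjusted p = 0.227 with the pair block) in the double knockout against *Rnaseh2b* ΔIEC. It is a near-identical copy of a Paneth cell gene and so uncertain. *Atoh1*, *Rep15* and *St6galnac1* were not analysed here.

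The 4 members with an entry among RefSeq promoters (GRCm38.p6, 300 bases around the start) are *Fcgbp*, *Muc2*, *Agr2* and *Spdef*. The windows of *Fcgbp* and *Muc2* are shown because both genes had the widest split between the WT pairs and were called higher in the double knockout than in both single knockouts, *Muc2* not with the pair block (adjusted p = 0.0728 and 0.132). They are on the plus strand, at chr7:28070986-28071285 for *Fcgbp* and chr7:141690090-141690389 for *Muc2*, with 58.3% and 55.3% of bases G or C. Capitals mark 3 words chosen after the data were seen, CAGCTG (both strands), AGGAAG (both strands) and TATAAA (given strand), which do not overlap each other here.
Fcgbp: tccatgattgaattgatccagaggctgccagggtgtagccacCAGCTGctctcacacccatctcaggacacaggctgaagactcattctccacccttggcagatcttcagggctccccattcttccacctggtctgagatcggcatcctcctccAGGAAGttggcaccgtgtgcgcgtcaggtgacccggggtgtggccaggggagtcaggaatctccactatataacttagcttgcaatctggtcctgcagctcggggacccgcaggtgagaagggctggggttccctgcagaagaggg
Muc2: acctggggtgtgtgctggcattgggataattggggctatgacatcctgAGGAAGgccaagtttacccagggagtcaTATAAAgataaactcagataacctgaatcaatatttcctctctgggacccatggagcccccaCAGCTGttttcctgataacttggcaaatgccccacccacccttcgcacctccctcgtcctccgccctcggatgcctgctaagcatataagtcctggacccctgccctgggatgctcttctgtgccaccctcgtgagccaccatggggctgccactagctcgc

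CAGCTG, an E-box word, was in the windows of *Fcgbp* and *Muc2* and in 16.3% of all 32851 promoters. AGGAAG, which holds the core of words read by the ETS family, to which *Spdef* belongs, was in those of *Fcgbp*, *Muc2* and *Spdef* and in 35.4% of all promoters, and TATAAA was in that of *Muc2* and in 8.32%. The forkhead word TGTTTAC (both strands) was in none of the 4 windows and in 3.65% of all promoters. Each match is a description of letters in a window and says nothing of binding.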

How the data were processed

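RNA of small intestinal organoids was measured in 14 libraries of 4 genotypes. The submitters' processing notes name cutadapt, TopHat2, HTSeq, DESeq2 and GRCm38. The authors deposited 1 table of normalized values on a log2 scale, without naming the transformation, and 0 of its columns stayed unused. Values of low genes are drawn together, the median SD being 0.00241 at levels of -3 to -1 and 0.0926 at 10 to 11. Read totals cannot be recovered, so the depth is unknown.

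Symbols and exon lengths came from GENCODE M21 (99.7% of identifiers matched), and promoters from RefSeq. Genes whose mean reached 3.32 (10 on the linear scale) were fitted with limma 3.58.1 in R 4.3.3 (lmFit, contrasts.fit, eBayes with trend), 1 mean per genotype, Benjamini-Hochberg threshold 0.05. Exact permutation tests were two-sided and ignored the library pairs, and for 2 against 4 libraries their smallest value was 0.133. Tables and figures used python 3.11.15, pandas 2.3.3, numpy 2.4.6, scipy 1.17.1 and matplotlib 3.10.9. The fit was tested on simulated data with known changes. Each simulated library was drawn independently, so that test does not cover the library pairs.

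Members and gene lists were chosen with earlier results of these data known. Other lists (further goblet cell genes, glycosylation, other mucins, regulators, folding and export, mucus release and processing, Paneth, enterocyte, stem, enteroendocrine, tuft, stromal and immune) are given by counts, naming up to 4 genes with the largest called change plus *Gfi1*, *Klf4*, *Foxa3*, *Creb3l1*, *Ern2*, *Retnlb* and *Muc13*. Values of *Muc5ac* and of single stromal and immune genes were added after they were seen. For the difference of effects, the share of all genes called was set to either direction after it was seen.

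Alternatives were pseudocounts of 1 and 5 on back-transformed values, no filter, a filter of 50, upper quartile scaling, lane as covariate, replicate number as block, library pairs as random block or averaged, no mean trend, fits of the compared groups, fits within a lane, and each library left out. Leaving out library pairs and sex as covariate were chosen after seeing the data. By their sex, the male and female pairs of a genotype come from different animals. Nothing says that libraries within a pair are separate cultures or animals. A p therefore measures the spread between these samples, which within pairs may be technical.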

Additional observations from a re-analysis of the deposited data

Results flagged for a closer look

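For each of the 8 mucus genes the effect of *Rnaseh2b* deletion differed between organoids with and without *Atg16l1* deletion, by the limma test of the difference itself (adjusted over 12802 genes). Of all 12802 genes 35.1% were called in this test, in either direction. The difference on the log2 scale was 2.09 for *Clca1*, 1.55 for *Fcgbp*, 1.40 for *Tff3*, 1.13 for *Spink4*, 1.04 for *Zg16*, 0.85 for *Muc2*, 0.84 for *Agr2* and 0.63 for *Spdef*. With the library pairs as a block, 5.30% of all genes were called above 0 and 6.83% below. *Muc2* (adjusted p = 0.0685) and *Zg16* (adjusted p = 0.138) were then not past the threshold. Past it were 5 of 8 with lane as covariate, 5 without *Rnaseh2b* ΔIEC replicate 2, and 0 with the pairs averaged (limma, 7 at an unadjusted p under 0.05). With lane as covariate 1219 of 12802 genes were called above 0 and 1361 below. Over all alternatives the difference for *Muc2* ran from 0.49 to 1.21. *Rnaseh2b* itself fell by 1.36 without *Atg16l1* deletion and by 0.81 with it. *Atg16l1* stood 1.46 higher in the double knockout than in *Atg16l1* ΔIEC organoids, so the loss of both genes was unequal between the groups compared. No cause was tested.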

How the results depend on the processing

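Of 888 values under settings other than leaving out 1 library, 763 kept direction and side of the threshold, 91 lost and 19 gained a call, and 15 turned direction. With libraries left out singly, 398 of 448 kept both, 37 lost and 6 gained a call, and 7 turned.

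Members past the threshold with the pairs as a random block were 2 of 8 in *Atg16l1* ΔIEC against WT, 0 in the double knockout against WT (limma, 3 at an unadjusted p under 0.05), 3 in the double knockout against *Atg16l1* ΔIEC and 0 in *Rnaseh2b* ΔIEC against *Atg16l1* ΔIEC (1 at an unadjusted p under 0.05). Of all genes, 0.0625 to 1.91% were then called in a direction in these comparisons. With pairs averaged, limma called 0 members in each of the 7 comparisons, with 3, 5, 2, 7, 5, 1 and 7 at an unadjusted p under 0.05 for *Rnaseh2b* ΔIEC, *Atg16l1* ΔIEC and double knockout against WT, double knockout against *Rnaseh2b* ΔIEC and *Atg16l1* ΔIEC, *Rnaseh2b* ΔIEC against *Atg16l1* ΔIEC and the difference of effects; few libraries then remain, and at most 2 of 12802 genes were called in a comparison.

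Without WT libraries 1 and 2, 6 members were past it in *Rnaseh2b* ΔIEC and 0 in the double knockout against WT (limma, 2 at an unadjusted p under 0.05). Of 12802 genes 1790 were then called higher and 1519 lower in *Rnaseh2b* ΔIEC, and 216 and 282 in the double knockout. Without WT libraries 3 and 4 there were 2 in *Atg16l1* ΔIEC and 5 in the double knockout, and *Muc2* turned to 0.010 in *Rnaseh2b* ΔIEC and 0.23 in *Atg16l1* ΔIEC, and *Agr2* to 0.13 in *Atg16l1* ΔIEC. Of all genes 771 were then called higher and 1031 lower in *Atg16l1* ΔIEC, and 1138 and 1203 in the double knockout. Without *Atg16l1* ΔIEC libraries 3 and 4, 3 were past it against WT, *Agr2* turned to 0.10, and in *Rnaseh2b* ΔIEC against *Atg16l1* ΔIEC *Tff3* turned to -0.21, *Spink4* to -0.0067 and *Spdef* to -0.10. In that fit 503 genes were called higher and 668 lower in *Atg16l1* ΔIEC against WT. In the double knockout against *Atg16l1* ΔIEC, 5 remained past it without *Atg16l1* ΔIEC libraries 1 and 2, 5 without 3 and 4, and 4 without double knockout libraries 1 and 2. All genes called higher and lower were 1973 and 2100, 395 and 329, and 1621 and 1483 in the same order. *Zg16* turned to 0.31 against WT without double knockout libraries 3 and 4, and to -0.26 against *Rnaseh2b* ΔIEC without 1 and 2. With lane as covariate 4 members were past it in each single knockout against WT, and 5 for the difference of effects. Of all genes 792 were then called higher and 712 lower in *Rnaseh2b* ΔIEC, and 777 and 809 in *Atg16l1* ΔIEC. For the difference of effects 1219 were above 0 and 1361 below.

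In *Rnaseh2b* ΔIEC against *Atg16l1* ΔIEC, upper quartile scaling gave -0.010 for *Tff3* and -0.0058 for *Spdef*, but it shifts all genes alike (their median from 0.0039 to -0.012), so this turn says nothing of these genes. Sex as covariate gave 0.032 for *Fcgbp*. The replicate number as block gave -0.073 for *Tff3*, 0.0088 for *Fcgbp* and -0.0081 for *Spdef*; libraries with the same number in different genotypes had a median correlation of -0.05, so this block has no footing in the values. For all of these the cause was not tested.

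Leaving out each library in turn gave 1 to 4 members in *Rnaseh2b* ΔIEC, 4 to 6 in *Atg16l1* ΔIEC and 1 to 3 in the double knockout against WT, 3 to 7 in the double knockout against *Rnaseh2b* ΔIEC, 5 to 8 against *Atg16l1* ΔIEC, 0 to 1 in *Rnaseh2b* ΔIEC against *Atg16l1* ΔIEC and 5 to 8 for the difference of effects. *Zg16* ran from -0.31 to 0.025 in the double knockout against WT and from -0.015 to 0.42 against *Rnaseh2b* ΔIEC, and in *Rnaseh2b* ΔIEC against *Atg16l1* ΔIEC *Tff3* ran from -0.095 to 0.1 and *Spdef* from -0.10 to 0.12. The number of all genes called moved as well. In the double knockout it ran from 445 to 1021 of 12802 genes higher against WT, and from 927 to 1743 against *Atg16l1* ΔIEC. Genes called lower ran from 545 to 1053 and from 895 to 1727.

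The depth is unknown and fold changes of low genes are understated. With 2 *Rnaseh2b* ΔIEC libraries, taken as 1 pair, their spread is taken from the other groups, and without 1 of them the lone library is assumed to vary like those. Lane, pair and sex coincide within the double knockout and cannot be told apart there.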
